A study of Rattus norvegicus with 6 samples.

Results

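The complement members studied here are 9 genes: C1qa, C1qb, C1qc, C1s, Serping1, C2, C3, Cfb and Cfd. They were found by gene name among the 26456 names of the array, and 10 probes measured them, 2 for C2 and 1 for each of the others. All 9 genes, and all 10 probes, passed the filter on dim probes. The 9 genes were chosen with the OLETF and LETO values of these same arrays known, so their strain differences are given as descriptions, with no test, and nothing is supported by them.

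RNA of left ventricle was taken from 6 male rats, and 1 array was hybridised per rat. The OLETF group held 3 rats of 27, 28 and 27 weeks, a strain that becomes obese and diabetic and is labelled type 2 diabetic. The LETO group held 3 rats of 27, 28 and 28 weeks of the strain used as its non-diabetic control. No treatment is named for either group, and all 6 rats share sex and tissue. Diabetes was not varied within a strain, so diabetes and strain cannot be told apart. The labels speak of 3 independent experiments for each strain. The standard deviations (SD) given measure the spread between these samples, and the standard errors rest on it in part.

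Complement is a set of plasma and cell-surface proteins that mark microbes, immune complexes and dying cells for removal. In the classical pathway C1q, built from C1qa, C1qb and C1qc chains, binds a target. Of its proteases C1r and C1s, C1s cuts C4 and C2, which together form the enzyme that cuts C3. In the alternative pathway factor D (Cfd) cuts factor B (Cfb), which forms the other enzyme that cuts C3. The liver makes most plasma complement, and macrophages, fibroblasts and endothelium of other tissues, the heart included, make some of it locally. Tissue RNA was measured, in which fewer cells of a type and less RNA per cell cannot be told apart.

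C2 was measured by 2 probes of 60 bases each, which lay on the plus strand of chromosome 20 of the rn4 build at chr20:4071119-4071178 and chr20:4071504-4071563, with their starts 385 bases apart. They are shown because the one large difference among the members rests on them. Each had 1 reading frame without a stop codon. Letters in capitals mark the longest runs shared with a probe of another gene among the 30367 on the array, 13 bases for the first probe and 15 for the second. Overlapping runs of that length are merged, so a marked stretch can be longer than the run.
First C2 probe: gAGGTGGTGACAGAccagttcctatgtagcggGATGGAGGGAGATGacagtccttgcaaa
Second C2 probe: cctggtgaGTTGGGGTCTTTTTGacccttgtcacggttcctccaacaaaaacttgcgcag

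The signal of each array was put on a log2 scale relative to that array's 75th percentile, so a level of 0 is the signal of a probe at that percentile. Differences are OLETF minus LETO, in log2 units, with the standard error (SE) of the limma fit. In that fit the variance of a gene is drawn towards that of all genes. The SE can therefore understate the spread of the genes that vary most. Levels are compared within a probe only. Among 18816 genes tested, 2.55% were called, that is, had a Benjamini-Hochberg adjusted p below 0.05 in limma. Among the members 1 of 9 was past that line, C2. The 3 LETO and 3 OLETF values did not overlap for 2 of the 9, C2 and Serping1, against 17.4% of all genes tested. As the members were chosen from this contrast, nothing is read from either count.

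The spots well above background made up between 75.5% and 79.8% of each array, and no spot was saturated. One slide carried LETO 1, LETO 2, LETO 3 and OLETF 1, and a further slide carried the other OLETF rats. LETO 1 stood apart from the other arrays, on the second principal component, which held 23.8% of the variance, and with the lowest array weight, 0.205 against 0.734 to 3.00. It was also the highest of the 6 arrays for C1qa, C1qc, C2, C3 and Cfd, so each of these is given with and without it. Heart muscle genes marked the tissue on all arrays: Tnnt2, cardiac troponin T, was at 8.86 ± 0.09 in LETO and 8.74 ± 0.19 in OLETF (SD, n = 3).

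C2, the protease whose larger fragment is the catalytic part of the classical and lectin C3 convertase, was far lower in OLETF. On the first probe its levels were −1.58, −2.20 and −2.43 on the LETO arrays, against −5.77, −5.36 and −5.65 on the OLETF arrays, each in the order of rats 1, 2 and 3. All 3 OLETF arrays lay below all 3 LETO arrays, and the gap between the strains was several times the spread within either. The scanner intensities behind these levels were 352, 207 and 196 in LETO against 22.5, 21.6 and 24.4 in OLETF. The lowest intensity that counted as well above background was between 13.9 and 19.6 on the 6 arrays, so C2 in OLETF was just over the limit of detection. The difference was −3.52 ± 0.22 (SE), or 11.5-fold lower. When each array was left out in turn it stayed between −3.70, without LETO 3, and −3.28, without LETO 1.

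The second C2 probe gave levels of −1.79, −2.40 and −2.68 in LETO against −6.09, −5.96 and −5.55 in OLETF. The order of the LETO arrays was the same as on the first probe. Its difference was −3.58 ± 0.25 (SE), and −3.32 without LETO 1. This probe was well above background on 2 of the 3 OLETF arrays, OLETF 1 and OLETF 3. On OLETF 2 its intensity was 14.3, under that array's limit of 17.3, so no exact fold is given. With slide as a block, where 0.558% of all genes were called, the differences were −3.70 and −3.80, which rest on OLETF 1, the OLETF rat on the LETO slide. Of all genes tested 19, or 0.101%, differed by 8-fold or more in either direction, and C2 was 1 of these. With normexp background correction, which adds an offset of 50 to every intensity, the difference of C2 was −1.84.

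**Figure D1:**
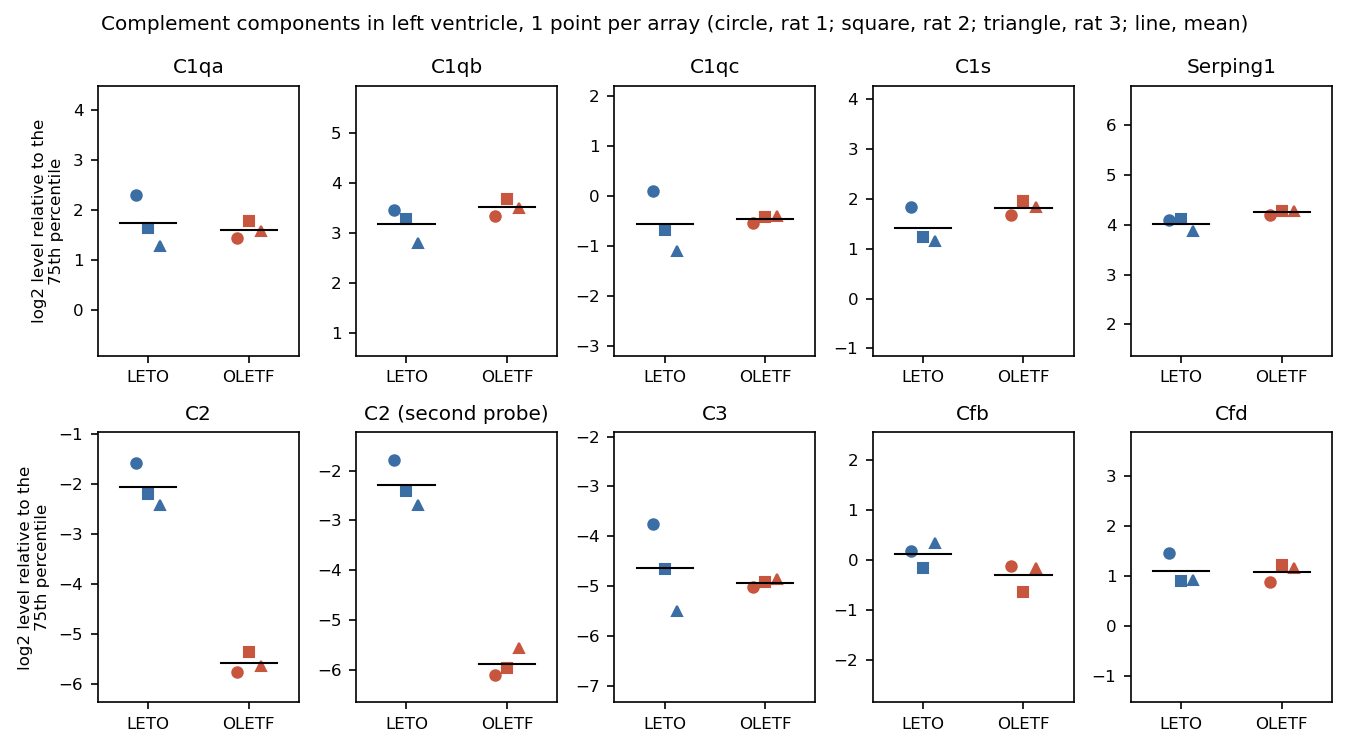
Level of each complement probe on the 6 arrays, as log2 signal relative to the array's 75th percentile, with LETO in blue, OLETF in red and a line at the mean of 3 arrays. Every panel spans the same number of log2 units. Both C2 probes lie between −2.68 and −1.58 in LETO and between −6.09 and −5.36 in OLETF, and the other probes differ by less than 0.5 between the means.

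C2 and Cfb are neighbours in the class III part of the major histocompatibility complex, and the start of the Cfb probe lay 6239 bases beyond that of the nearer C2 probe. Cfb encodes factor B, the C2 counterpart of the alternative pathway. Its levels, from the probe at chr20:4077743-4077802 (rn4), were 0.20, −0.16 and 0.35 in LETO against −0.10, −0.63 and −0.15 in OLETF. The highest OLETF array lay above the lowest LETO array. The difference was −0.42 ± 0.19 (SE), and it was −0.26 without OLETF 2, the lowest array, and −0.23 with slide as a block.

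The genes around C2 showed no difference of like size. Within 100 kb of the C2 probe the files placed 12 other measured genes, and their differences lay between −0.46 and 0.04. None was called in limma, and the lowest adjusted p was 0.089, for an Ensembl transcript without a symbol, ENSRNOT00000065767, whose difference was −0.46. On the left the nearest was Ng35, now named Zbtb12 in RefSeq, a zinc finger gene that is on none of the gene lists and is named for its place alone. Its difference was −0.01 ± 0.17 (SE; adjusted p = 0.994, limma). On the right, beyond Cfb, the nearest was Rdbp, now named Nelfe, a subunit of the negative elongation factor, at 0.03 ± 0.09 (SE; adjusted p = 0.964, limma). The probes of Tnxb and Tnxa have the same position in the files, and signal of these near-identical copies cannot be told apart.

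A longer list of class III genes had 36 measured members, and 0 were called in limma. At an unadjusted p below 0.05 there were also 0, against 12.4% of all genes tested, and 0 with trend and robust or with array weights. Their median difference was −0.05, beside −0.01 over all genes tested. In 14 of the 36 OLETF was higher and in 22 lower. The probe of a gene on this list is placed on chromosome 1, and that of another has no position. Not all 36 are therefore placed in the region by their probes. The list does not hold ENSRNOT00000065767 or the C4 gene, whose probe lay at chr20:4315816-4315875 (rn4) and which is counted with the complement genes. C4 had an unadjusted p of 0.022 (limma), and its levels are given further on. Tnf, the inflammatory cytokine, lies in this region too and spread widely, from −0.68 to 1.81 over LETO and from −1.60 to 1.14 over OLETF.

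**Figure D2:**
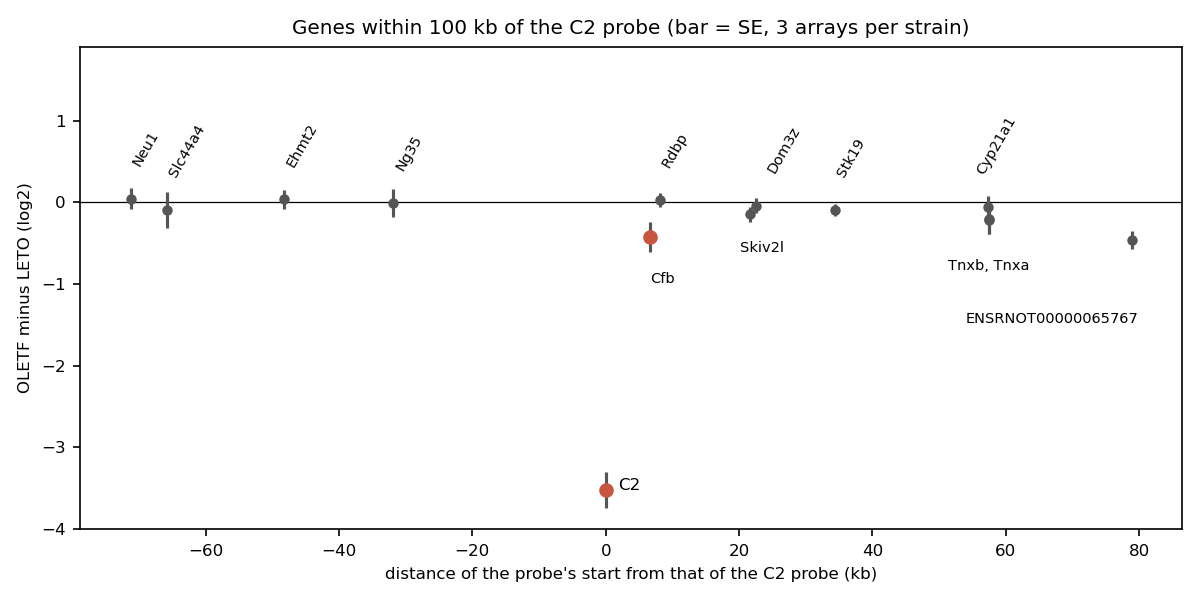
OLETF minus LETO difference (log2, bar = SE) of the measured genes within 100 kb of the C2 probe, by distance in kb, with C2 and Cfb in red. C2 stands at −3.52, and the 12 genes other than C2 and Cfb lie between −0.46 and 0.04.

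The 3 chains of C1q are encoded side by side on chromosome 5, where the files place their probes at chr5:155647530-155647589 for C1qb, chr5:155656638-155656697 for C1qc and chr5:155662578-155662637 for C1qa (rn4, minus strand). In tissues C1q comes mostly from macrophages. C1qa had levels of 2.30, 1.65 and 1.28 in LETO against 1.45, 1.78 and 1.58 in OLETF, with the OLETF values inside the LETO range. Its difference was −0.14 ± 0.25 (SE), and without LETO 1 it changed sign, to 0.14. C1qc had levels of 0.10, −0.67 and −1.09 in LETO against −0.53, −0.42 and −0.40 in OLETF. Its difference was 0.10 ± 0.27 (SE), with 0.43 without LETO 1 and −0.16 without LETO 3. For both chains LETO 1 was the highest and LETO 3 the lowest of the 6 arrays, and the OLETF arrays were close together.

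C1qb had levels of 3.46, 3.28 and 2.80 in LETO against 3.35, 3.69 and 3.51 in OLETF. The groups overlapped, although OLETF 2 and OLETF 3 lay above every LETO array. Its difference was 0.34 ± 0.18 (SE). It was 0.17 with slide as a block, 0.48 without LETO 1 and 0.15 without LETO 3.

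RefSeq promoters of the GRCr8 build were at hand for 4 of the 9 members, C1qa, C1qb, C3 and Cfd. Those of C1qa and C1qb are shown because these chains varied together from array to array. Each is the 250 bases before the RefSeq start, on the minus strand at chr5:154419934-154420183 for C1qa and chr5:154407828-154408077 for C1qb. Capitals mark the motif GAGGAA, searched on both strands, one form of the site bound by ETS factors such as PU.1 of macrophages.
C1qa promoter: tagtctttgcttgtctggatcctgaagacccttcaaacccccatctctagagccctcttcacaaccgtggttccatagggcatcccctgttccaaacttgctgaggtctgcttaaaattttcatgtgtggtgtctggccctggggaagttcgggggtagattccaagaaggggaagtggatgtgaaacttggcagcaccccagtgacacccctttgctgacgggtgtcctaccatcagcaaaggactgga
C1qb promoter: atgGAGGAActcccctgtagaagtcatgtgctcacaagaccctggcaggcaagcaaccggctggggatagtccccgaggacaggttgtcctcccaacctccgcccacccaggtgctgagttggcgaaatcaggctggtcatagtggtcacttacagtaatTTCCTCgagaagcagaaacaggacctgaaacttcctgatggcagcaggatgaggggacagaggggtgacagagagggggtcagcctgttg

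The C1qb window held GAGGAA at 2 places, and the windows of C1qa, C3 and Cfd held it at none. Among all 33469 RefSeq promoters of the same length 23.3% held it. Other forms of the ETS site were not searched, so a window without GAGGAA can still hold one. A match describes letters and not a bound site.

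The variation of C1q between arrays can be set beside that of macrophage markers. The median deviation of the 3 chains from their means over the 6 arrays was 0.60, −0.07 and −0.55 in LETO, against −0.03, 0.11 and 0.11 in OLETF. For 18 macrophage markers it was 0.31, −0.18 and −0.25 in LETO against 0.01, 0.08 and 0.02 in OLETF. Both were highest in LETO 1 and lowest in LETO 3, although only 10 of the 18 macrophage markers had their highest value in LETO 1. The pattern was not limited to macrophage genes. The 19 tested genes of the inducer list, described further on, had medians of 0.23 in LETO 1 and −0.14 in LETO 3. These were the highest and lowest of the 6 arrays. The 9 fibroblast markers were lowest in LETO 3, at −0.34. The part of macrophage number in these values was not tested.

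Of the 18 macrophage markers tested, 12 were higher and 6 lower in OLETF, and their summed level, as linear multiples of the 75th percentile, was 35.6 to 41.4 in LETO against 37.5 to 41.1 in OLETF. Cd68 and Marco were not tested. An unadjusted p below 0.05 (limma) was reached by 5 of the 18, not all in the same direction, against 12.4% of all genes tested. Folr2, the folate receptor of resident macrophages, rose by 1.94 (adjusted p = 0.00031, limma), with levels of −1.02 ± 0.11 in LETO against 0.92 ± 0.14 in OLETF (SD, n = 3). Lyve1, a hyaluronan receptor of resident macrophages and lymphatic vessels, fell by 1.55 (adjusted p = 0.0159, limma). The call of Lyve1 was lost with slide as a block (adjusted p = 0.097) and without LETO 1, LETO 2, OLETF 2 or OLETF 3 in turn, where the adjusted p reached 0.078. The values of both genes did not overlap between the strains.

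**Figure D3:**
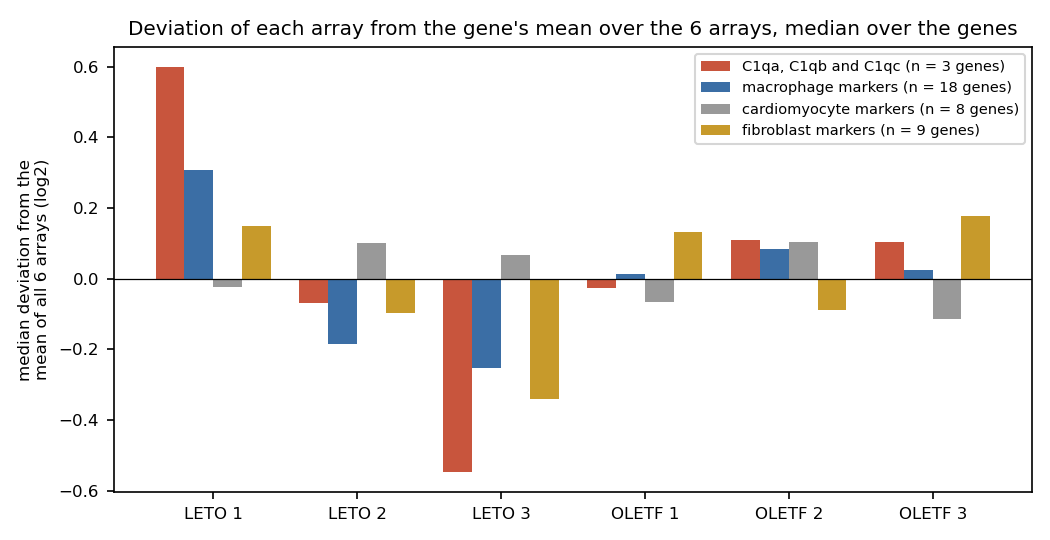
Median deviation (log2) of the C1q chains and of macrophage, cardiomyocyte and fibroblast markers on each array from each gene's mean over the 6 arrays. The C1q bars run from 0.60 in LETO 1 to −0.55 in LETO 3, and the 3 OLETF arrays lie between −0.03 and 0.11.

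C1s, the protease that cuts C4 and C2 once C1q is bound, had levels of 1.83, 1.23 and 1.15 in LETO against 1.67, 1.95 and 1.84 in OLETF (chr4:160736725-160736784, rn4). LETO 1 lay among the OLETF values and the other two LETO arrays below them. The difference was 0.42 ± 0.19 (SE), with 0.63 without LETO 1, 0.29 without LETO 3 and 0.27 with slide as a block. C1r, the partner protease, is not a member. It was 2.38 ± 0.28 in LETO and 2.64 ± 0.04 in OLETF (SD, n = 3), a difference of 0.26 (adjusted p = 0.579, limma).

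Serping1 encodes the C1 inhibitor, which removes C1r and C1s from C1q. Its levels were 4.09, 4.11 and 3.86 in LETO against 4.20, 4.27 and 4.28 in OLETF (chr3:67968812-67968871, rn4). Every OLETF array lay above every LETO array, by a small margin. The difference was 0.23 ± 0.10 (SE), or 1.17-fold, and 0.15 without LETO 3. C1s and Serping1 are made by fibroblasts among other cells. Of 9 fibroblast markers 5 were higher and 4 lower in OLETF, with a median difference of 0.08. Their summed level, to which the brightest genes add most, was 65.2 to 85.8 in LETO against 81.7 to 93.9 in OLETF. None of these 9 markers was called. At an unadjusted p below 0.05 there were 3 (limma), not all in the same direction, against 12.4% of all genes tested. With trend and robust 0 were called, against 3.48% of all genes, and with array weights 2, against 9.03%. Their part in the values of C1s and Serping1 was not tested.

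C3, the protein on which all pathways meet, was dim in the ventricle of both strains. Its levels were −3.74, −4.65 and −5.49 in LETO against −5.01, −4.92 and −4.85 in OLETF, and its intensities were 78.8, 37.8 and 23.4 in LETO against 38.0, 29.4 and 42.6 in OLETF. The LETO arrays spread far more than the OLETF arrays, which lay close together inside the LETO range (SD 0.88 and 0.08, n = 3). The difference was −0.29 ± 0.39 (SE), which changed sign to 0.15 without LETO 1 and was −0.73 without LETO 3. The files place its probe on an unassigned sequence of rn4.

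Cfd encodes factor D, also known as adipsin, the protease that activates factor B and a product of fat cells and macrophages. Its levels were 1.46, 0.89 and 0.91 in LETO against 0.87, 1.22 and 1.16 in OLETF (chr7:11325547-11325604, rn4). Both strains covered nearly the same range, with a difference of −0.00 ± 0.18 (SE). It was 0.18 without LETO 1 and −0.22 with slide as a block. Of the fat cell markers, Adipoq, Lep, Cidec and Pck1 were not tested, and 0 of the 4 tested were called in limma, with 0 at an unadjusted p below 0.05 and 0 with trend and robust or array weights.

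**Figure D4:**
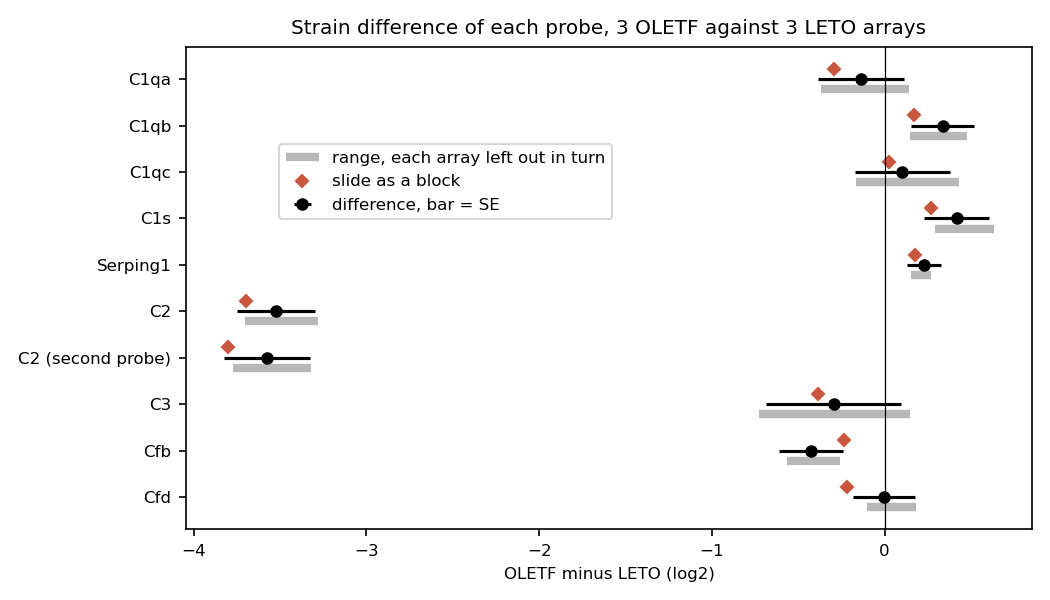
OLETF minus LETO difference (log2) of the 10 complement probes with its SE (black), with slide as a block (red diamond) and as the range when each array is left out in turn (grey). C2 lies beyond −3 under each of these settings, and the ranges of C1qa, C1qc, C3 and Cfd include 0.

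The liver is the main source of plasma C2, C3 and Cfb, and hepatocyte markers were therefore checked. Alb, Apoa1, Fga, Fgb and Fgg were not well above background on all 3 arrays of either strain. Ttr, the thyroxine carrier transthyretin, fell by 0.85 (adjusted p = 0.030, limma), and this call was lost when any 1 of the 6 arrays was left out (adjusted p 0.051 to 0.10). The 4 other hepatocyte markers tested were not called, with differences between −0.26 and 0.04.

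Markers of lymphocytes and red blood cells were checked as well, since blood and immune cells remain in the tissue. Of 7 lymphocyte markers tested 6 were lower and 1 higher in OLETF. Their summed level was 2.44 to 3.03 in LETO against 1.70 to 1.81 in OLETF. An unadjusted p below 0.05 (limma) was reached by 4 of the 7, all lower, against 12.4% of all genes tested. Cd3g, a CD3 subunit on T cells, fell by 0.96 (adjusted p = 0.0178, limma), and Nkg7, a granule protein of cytotoxic cells, fell by 0.84 (adjusted p = 0.022, limma). With slide as a block both calls were lost (adjusted p = 0.237 and 0.287). Leaving out LETO 2, OLETF 2 or OLETF 3 also ended both calls, as did LETO 1 for Cd3g and OLETF 1 for Nkg7, with an adjusted p of up to 0.089 for Cd3g and 0.105 for Nkg7. Slc4a1, the anion exchanger of red cells, rose by 3.19 (adjusted p = 0.0059, limma), a call that was lost with slide as a block, where the difference was 2.88 (adjusted p = 0.116). The 3 globin genes tested were not called, with differences between −2.22 and −0.94. Without LETO 3, however, all 3 were called lower in OLETF (adjusted p 0.0065 to 0.024, limma). The part of these cells in the complement values was not tested.

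The rest of the complement system was given by a list of 58 gene names, some of which are older or other names of the same gene. The array held probes under 42 of these names, and 27 were bright enough to test. A name without a probe is thus not always a gene left unmeasured. Of these, 0 were called in limma in either direction. At an unadjusted p below 0.05 there were 3, against 12.4% of all genes tested. With trend and robust 0 were called, against 3.48% of all genes, and with array weights 5, against 9.03%. In 18 of the 27 OLETF was higher, beside 47.6% of all genes tested, and the median difference was 0.08, beside −0.01.

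Among recognition proteins and proteases, 4 of 6 tested genes were higher in OLETF and 2 lower, none called. The C4 gene, spelled C4b in the files and matched by its accession to C4a in RefSeq, encodes the protein that C2 joins to form the enzyme. Its levels were 0.93, 0.67 and 1.14 in LETO against 1.69, 1.36 and 1.18 in OLETF, so the strains did not overlap. The difference was 0.49 ± 0.17 (SE; adjusted p = 0.268, limma). C4 has near-identical copies, and which of them the probe reads is uncertain. Masp1, the lectin pathway protease, differed by −0.34 ± 0.12 (SE; adjusted p = 0.279, limma) on the probe that stood for it and by −0.04 on another. Masp2, the lectin protease that cuts C2, differed by 0.00 ± 0.11 (SE; adjusted p = 0.999, limma). It lay near the limit of detection, at −5.69 in LETO and −5.68 in OLETF. On the LETO arrays it was well above background in 2 of 3, so this difference says little about Masp2.

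Beyond C3, C5 was not well above background. C6, a part of the membrane attack complex, had levels of −1.54, −2.17 and −3.21 in LETO against −2.06, −0.92 and −0.78 in OLETF. The difference of 1.05 ± 0.48 (SE; adjusted p = 0.455, limma) was the largest on the list, and it was 0.25 with slide as a block. C7 was not called, at 4.37 ± 0.32 in LETO and 4.24 ± 0.12 in OLETF (SD, n = 3). Properdin (Cfp), which stabilises the alternative C3 convertase, differed by −0.20 ± 0.24 (SE; adjusted p = 0.893, limma).

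The regulators were likewise not called. Factor I (Cfi), which cuts C3b and C4b, differed by 0.08, and clusterin (Clu), which binds the terminal complex, by −0.00. The decay accelerating factor Cd55, which breaks up the C2-containing convertase, differed by 0.42 ± 0.34 (SE; adjusted p = 0.770, limma) on the probe that stood for it and by 0.14 ± 0.42 (SE) on another. Cd59, which blocks the membrane attack complex, was 3.30 ± 0.04 in LETO and 3.51 ± 0.11 in OLETF (SD, n = 3), without overlap and with an adjusted p of 0.421 (limma).

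Of 7 receptors tested 5 were higher in OLETF and 2 lower, none called. The anaphylatoxin receptors C3ar1 and C5ar1 differed by 0.19 ± 0.34 and −0.06 ± 0.19 (SE). Itgam, a chain of complement receptor 3, differed by −0.13 on the probe that stood for it and by 0.08 on the other. Cd93, a C1q-related membrane protein of endothelium, differed by 0.48 ± 0.21 (SE; adjusted p = 0.440, limma). Vsig4, the complement receptor of resident macrophages, was not well above background.

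**Figure D5:**
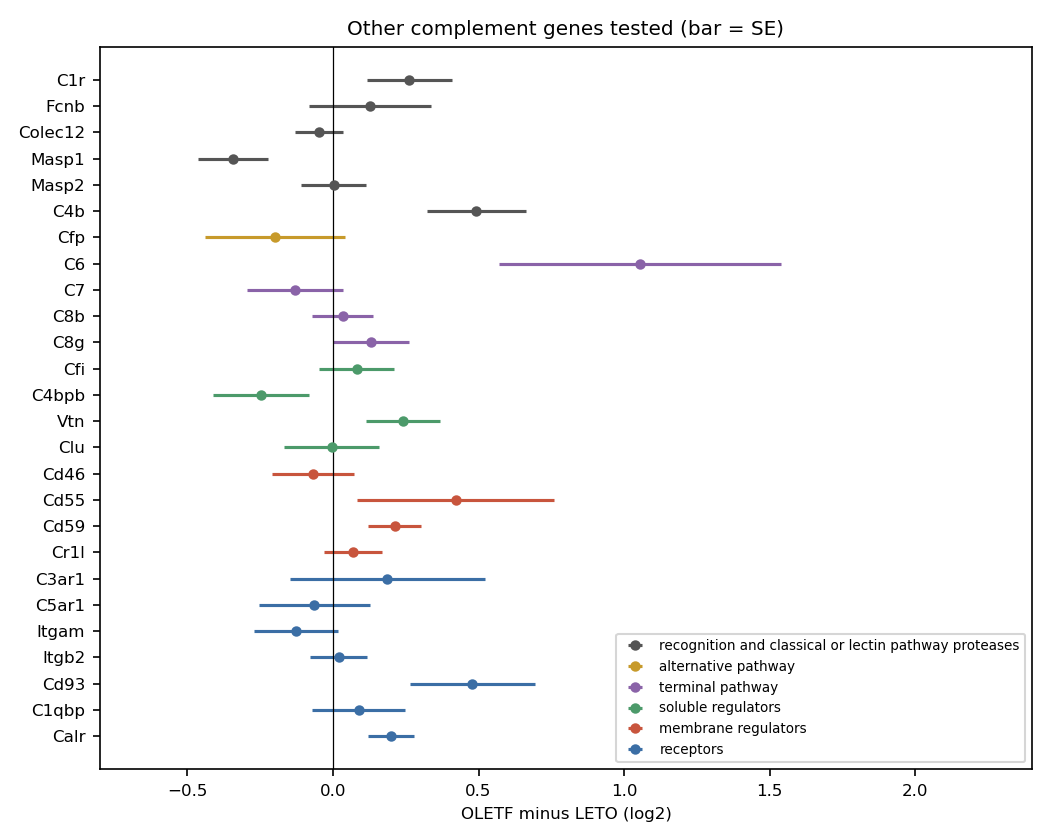
OLETF minus LETO difference (log2, bar = SE) of the complement genes tested that are not members, coloured by role, with 1 of the 27 not shown. No gene passed the adjusted p of 0.05 in limma, and the points lie between −0.34 for Masp1 and 1.05 for C6.

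Another list, the inducers, held cytokines and transcription factors known to induce complement genes. It also held cytokine receptors and an inhibitor of cytokine signalling. Of its 21 genes with a probe 19 were tested. None was called in limma. At an unadjusted p below 0.05 there were 2, a receptor and the signalling inhibitor, against 12.4% of all genes tested. With trend and robust 0 were called, against 3.48%, and with array weights 1, against 9.03%. Their median difference was −0.11, beside −0.01 over all genes tested. Il6 and Ifng, inducers of C3 and of C2 and Cfb, were not well above background. Irf1, which acts downstream of interferon-gamma, differed by −0.29 ± 0.27 (SE). Il1b was spread widely over the arrays, from −1.51 to 1.09 over LETO and from −4.06 to 0.29 over OLETF.

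Lastly, other genes were ranked by how closely they followed the members over the 6 arrays, as a description without a test. For the mean deviation of the 3 C1q chains within each strain the closest of 18061 genes was Cdkn2c, a cyclin-dependent kinase inhibitor, with a Pearson r of 0.998. LOC682147, ENSRNOT00000011278, Cdc42ep4 and Fkbp7 followed. For the level of C2, those near the top of 18815 genes were TC609556, with an r of 0.996, Tpbg, ENSRNOT00000058850 and Tdrd1. These points share 6 arrays, and for C2 the ranking mostly follows the strain difference, which was −2.90 for TC609556 and −2.24 for Tdrd1.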

How the data were processed

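Arrays of 1 colour (Agilent Rat GE 4x44K) were used for 3 OLETF and 3 LETO rats. Scanner files hold the signal of each spot as linear intensity, background-subtracted by the authors' Feature Extraction software, version 10.7.3.1 per the file headers and 9.1 per the submitters' processing notes. The deposited value table holds linear intensity scaled per array, and its logarithm correlated with that of the processed signal at 1.0000 on every array. The log2 of the deposited processed signal was taken, spots with outlier flags were left out, spots of a probe were averaged, and the array's 75th percentile over all probes was subtracted. A probe was tested if well above background on all 3 arrays of a strain, and 21484 of 30367 probes passed. Each gene was represented by its brightest tested probe on average. Differences were fitted with limma 3.58.1 in R 4.3.3 (lmFit, eBayes) over all genes, with Benjamini-Hochberg adjustment.

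Members and gene lists were chosen with earlier results of these data known. Named genes were the members, every called gene of the complement, class III and inducer lists, a set of central complement genes whatever their values, the nearest measured neighbours of C2 and Cfb, called or brightest markers, and the 5 genes closest to C1q and to C2. Ng35 apart, which is a neighbour on no list, Masp2, Tnf, Tnxa, Tnxb, Irf1, Il1a, Il1b, Ifngr2, Calr, Vtn and ENSRNOT00000065767 fall outside that rule and were named after their values were seen. Some items that the rule takes are not reported here. Replicate numbers come from the titles, and for LETO 2 the source name gives another number. Same-numbered rats did not deviate together (correlations −0.09, −0.14 and −0.01). Probe positions are those of rn4 in the files. Accessions were matched to RefSeq for current names only. Python 3.11.15 and matplotlib 3.10.9 were used for sequences and figures. The fit was tested on simulated data.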

Additional observations from a re-analysis of the deposited data

How the results depend on the processing

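C2 was lower in OLETF under all 19 alternatives, from −3.70 without LETO 3 to −1.84 with normexp and quantile normalization, whose offset compresses dim probes. C1qb, C1s and Serping1 were higher and Cfb lower under all 19, whereas C1qa, C1qc, C3 and Cfd took both signs. With array weights, which count LETO 1 least, the differences of C1qc, Serping1 and C3 were 0.50, 0.33 and 0.31. That setting also called 5 other complement genes (C1r, Calr, Vtn, C6 and Masp1) and 1 gene of the inducer list, the receptor Ifngr2. It called 1700 genes in all, 875 higher and 825 lower, against 480, 283 and 197. Slide as a block left 105 calls, 52 higher and 53 lower, and no filter on dim probes 240, 149 higher and 91 lower; the cause was not tested. With the replicate block there were 301 calls, 166 of them higher, and 1 inducer, Il1a, was called; C2 stayed at −3.52. Leaving out each array in turn gave 216 to 614 calls, 126 to 375 higher and 87 to 239 lower, with the fewest without OLETF 3, OLETF 2 (227), LETO 2 (284) and OLETF 1 (314), and 0 among the other complement genes, the class III neighbours and the inducers. The 3 arrays per strain limit the precision, and C2 in OLETF lay near background, so its fold depends on the background correction.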
